A study of Mus musculus with 64 samples.

Results

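Adipokines are proteins that fat cells release into the blood or to their neighbors, and 10 genes that encode such factors were followed here through brown and white fat of mice that lack Nampt in their fat cells. The members were Adipoq, Lep, Retn, Cfd, Rbp4, Apln, Nrg4, Sfrp5, Mest and Agt, taken by symbol from a table of 52636 genes, and all 10 were found and passed the filter on low counts, as did 20249 genes in all. Sfrp5 was selected on its measured fall in the white fat of the knockout mice, and the others by their role, so its comparison between genotypes in that depot is given below as a description without a test. The samples were total RNA sequencing libraries from brown fat (BAT) and from epididymal white fat (eWAT) of male mice, 2 to 4 months of age by the study's account. Fat-specific Nampt knockout mice (FANKO) carried a floxed Nampt allele (NamptTM1Jtree) together with an Adiponectin-Cre transgene, and the controls, called WT, were littermates from the same cross without Cre. The study collected tissue at zeitgeber time (ZT) 6 and 10, in the light phase, and at ZT 18 and 22, in the dark phase, with 4 samples for each depot, genotype and time, or 64 samples. The Cre is driven by regulatory sequence of Adipoq, which is itself a member, so the deletion is directed to adipocytes, while a piece of fat also holds vascular, immune and stromal cells.

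Leptin (Lep) reports the size of fat stores to the brain, adiponectin (Adipoq) acts on liver and muscle to raise insulin sensitivity, and resistin (Retn) opposes insulin action in mice. Adipsin (Cfd) is the protease that starts the alternative complement pathway by cutting factor B, retinol-binding protein 4 (Rbp4) carries vitamin A in plasma, apelin (Apln) signals to vessels and heart through its receptor Aplnr, and angiotensinogen (Agt) is the precursor of the angiotensins. Neuregulin 4 (Nrg4) is an epidermal growth factor-like ligand of ERBB4 known from brown fat, Sfrp5 is a secreted decoy that binds WNT ligands, and the imprinted gene Mest is known together with Sfrp5 as a gene whose transcript is high in expanding white fat.

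The promoters of Lep and Nrg4 are shown because these were the members with the smallest p-values for a daily rhythm. Each line gives the 250 bases before a RefSeq transcription start in GRCm38.p6, Lep from chr6:29059971-29060220 on the plus strand and Nrg4 from chr9:55283626-55283875 on the minus strand, read 5′ to 3′. Capitals mark a match to the C/EBP motif TTGCNNAA in Lep and to the ROR motif AGGTCA, here on the other strand as TGACCT, in Nrg4.
Lep: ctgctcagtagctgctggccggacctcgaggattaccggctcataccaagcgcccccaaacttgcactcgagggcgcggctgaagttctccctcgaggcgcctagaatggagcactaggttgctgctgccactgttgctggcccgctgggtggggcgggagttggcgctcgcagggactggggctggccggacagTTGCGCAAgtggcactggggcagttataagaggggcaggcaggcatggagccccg
Nrg4: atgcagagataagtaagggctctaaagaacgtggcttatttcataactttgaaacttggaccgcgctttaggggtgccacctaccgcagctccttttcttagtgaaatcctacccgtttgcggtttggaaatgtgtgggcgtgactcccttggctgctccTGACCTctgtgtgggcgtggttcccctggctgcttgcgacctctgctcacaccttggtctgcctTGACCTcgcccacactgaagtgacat
The Lep match lies 55 to 48 bases before the start. The Nrg4 matches lie 90 to 85 and 26 to 21 bases before it. Of 32851 such windows over the genome, 9.56% held the C/EBP motif on either strand and 14% held the ROR motif. The E-box CACGTG was in 6.02% of the windows, the D-box TTANGTAA in 2.06%, the PPAR direct repeat in 0.0335% and the TATA box TATAAA in 12.4%. Neither the E-box, the D-box nor the PPAR repeat had a match in the windows of any member. A C/EBP match was also present at 1 of the 2 Rbp4 starts and 1 of the 3 Mest starts, and the TATA box was present before Agt and at 1 Rbp4 start. A match in these letters is a description of the sequence and was not tested for binding.

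The libraries held 6117343 to 30544847 counted reads. Nampt, the targeted gene, was 479 to 1450 CPM (reads of a gene relative to the TMM-scaled total of its library) in WT BAT and 109 to 186 CPM in FANKO BAT. In eWAT it was 112 to 310 CPM in WT and 101 to 131 CPM in FANKO, so the genotype groups overlapped there. The 2 WT libraries of ZT 18 numbered 4, one from each depot, deviated most from their groups (0.403 and 0.401 root mean square log2 units against a median of 0.197), and calls that turned on them are given below with and without them, an alternative chosen after seeing the data. Mitochondrially encoded genes made up 24.6% of BAT reads in WT and 14.7% in FANKO by median, and 6.55% and 10.7% of eWAT reads. Brown adipocyte markers summed to 5850 to 12500 CPM in WT BAT and 26.5 to 67.3 CPM in WT eWAT, and mesothelial markers to 4.6 to 12.4 and 187 to 486 CPM. Epididymis markers reached 49.7 CPM in eWAT and skeletal muscle markers 470 CPM in BAT.

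**Figure D1:**
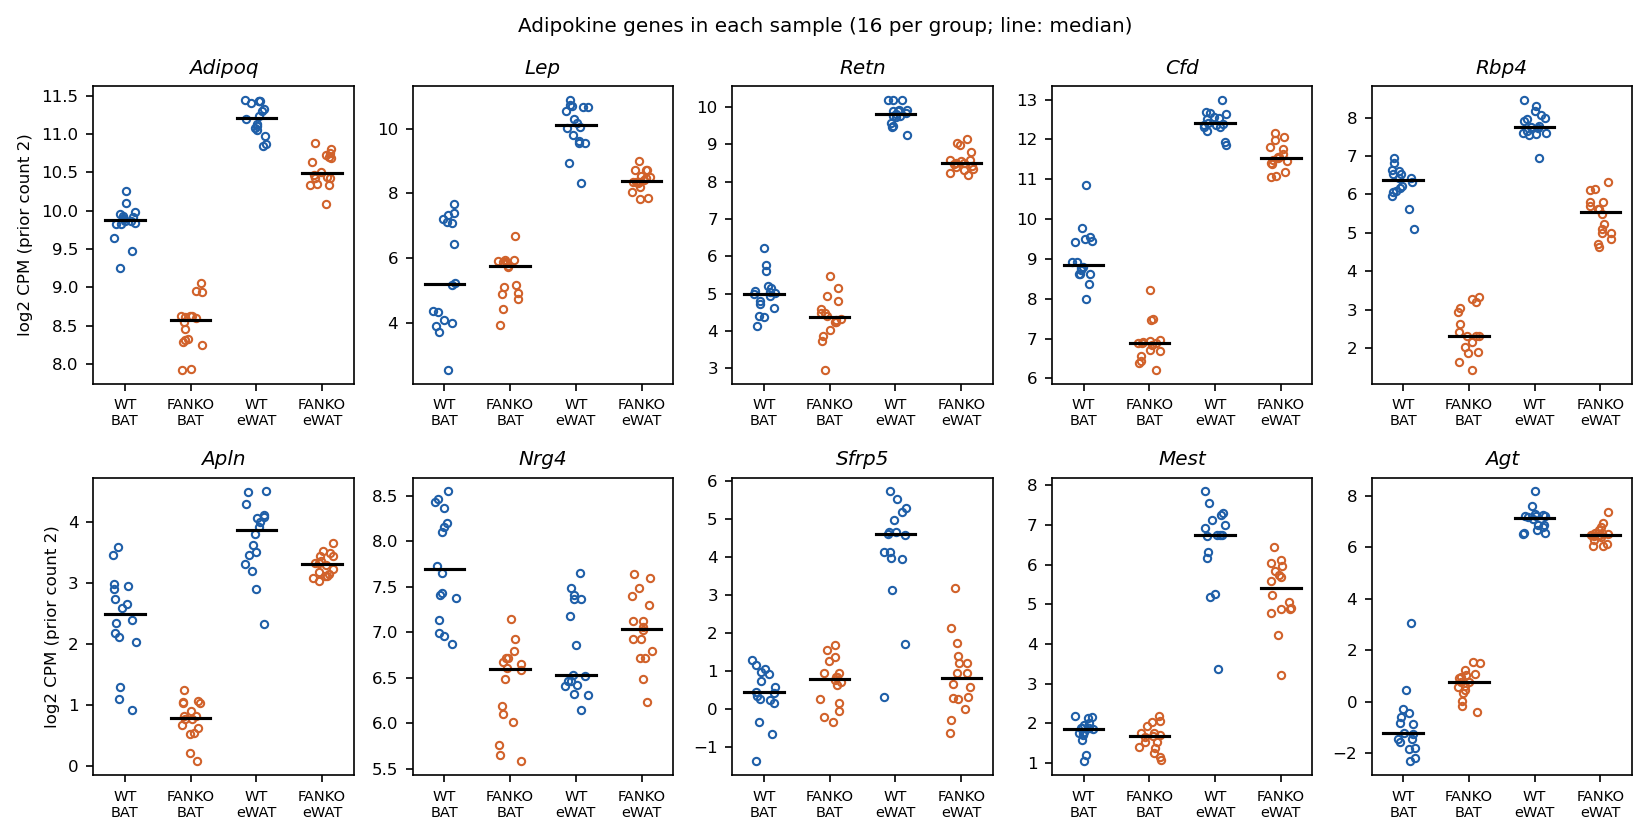
Level of each adipokine gene in every sample (y axis, log2 CPM with a prior count of 2) by depot and genotype, 16 samples per group, with the median as a line. All eWAT samples lie above all BAT samples of the same genotype for Adipoq, Lep, Retn, Cfd, Mest and Agt, while Nrg4 has its highest values in WT BAT and Sfrp5 is low in every group but WT eWAT.

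In WT mice the adipokine genes were mostly higher in white fat. The 9 members other than Sfrp5 all differed between the depots at an adjusted p below 0.01, 8 lower in BAT and 1, Nrg4, higher, where 73.7% of all genes tested differed, 41.1% lower and 32.7% higher. Agt stood farthest apart, with a median of 0.304 CPM in WT BAT and 140 CPM in WT eWAT and no overlap between the 16 samples of each (log2 fold change, BAT minus eWAT, -8.06 ± 0.27 SE, adjusted p = 3.7e-35). Mest (-4.95 ± 0.27), Retn (-4.74 ± 0.17) and Lep (-4.46 ± 0.23) came next in size, again without overlap. Nrg4 was 117 to 376 CPM in WT BAT and 70.6 to 201 CPM in WT eWAT (0.92 ± 0.08, adjusted p = 6.8e-16), and 8 of the 16 BAT samples exceeded every eWAT sample. With library size scaling alone its difference was 0.18 (adjusted p = 0.022). In FANKO mice Nrg4 was instead lower in BAT than in eWAT (-0.60 ± 0.08, adjusted p = 1.9e-09), and all 9 members other than Sfrp5 were lower in BAT, where 59.7% of genes differed, 31.6% lower and 28.1% higher. Sfrp5, at 1.61 CPM in FANKO BAT and 1.64 CPM in FANKO eWAT by median, was 1.23 and 24.1 CPM in the same depots of WT mice. No depot test is given for it, because the WT eWAT samples were part of the contrast it was chosen on.

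Per kilobase of exon, Cfd led in WT eWAT with a median of 5870 CPM per kb, followed by Adipoq at 1720, Retn at 575, Lep at 334, Rbp4 at 161, Agt at 74.1, Mest at 27.3, Nrg4 at 15.1, Sfrp5 at 12.7 and Apln at 4.58. Only the first 2 steps of this order were wider than the range over samples, and all later neighbors overlapped. In WT BAT Adipoq was first at 682 CPM per kb and Cfd second at 501, with overlapping ranges, and both lay above Rbp4 at 61.6, Nrg4 at 33.9, Retn at 20.2 and Lep at 10.8, while Apln, Mest, Sfrp5 and Agt were under 2 CPM per kb. FANKO eWAT kept Cfd (3230), Adipoq (1040), Retn (230) and Lep (100 CPM per kb) as its first 4, with no overlap between neighbors among them. In FANKO BAT Rbp4 stood sixth at 3.63 CPM per kb, below Nrg4 (16), Lep (15.9) and Retn (13).

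Brown fat of FANKO mice had lower mean levels of 6 of the 10 adipokine genes. Rbp4, Cfd, Apln, Adipoq, Nrg4 and Retn fell, Agt rose, and Lep, Sfrp5 and Mest did not pass the threshold (edgeR quasi-likelihood test, adjusted p below 0.01 over all genes). In the same comparison 67.0% of all genes tested were called, 33.9% lower and 33.1% higher, so the count of 7 is close to the background. The median log2 fold change of the 10 members was -0.96 against 0.00 for all genes. In bulk tissue, fewer cells of a type and less RNA per cell cannot be told apart, here and in the results that follow.

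Rbp4 changed most in BAT. It ranged from 33.9 to 124 CPM with a median of 82.8 CPM in WT and from 2.56 to 9.97 CPM with a median of 4.88 CPM in FANKO, and no FANKO sample reached the lowest WT sample (log2 fold change, FANKO minus WT, -3.82 ± 0.18, a 14.1-fold difference, adjusted p = 3.8e-27). The adipsin gene Cfd had a lowest, median and highest level of 256, 462 and 1860 CPM in WT and of 73.8, 119 and 298 CPM in FANKO (-2.23 ± 0.17, adjusted p = 2.0e-18). The WT maximum of Cfd was the ZT 18 library numbered 4, and without the 2 WT libraries of ZT 18 numbered 4 the log2 fold change was -2.06. Apln was low in BAT throughout, at 1.78 to 12 CPM in WT and 0.932 to 2.25 CPM in FANKO, with 14 of 16 WT samples above every FANKO sample (-1.80 ± 0.17, adjusted p = 2.0e-14).

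Adipoq, whose regulatory sequence drives the Cre, was 610 to 1220 CPM in WT BAT and 241 to 531 CPM in FANKO BAT, with no overlap (-1.34 ± 0.08, adjusted p = 1.0e-23). Nrg4 had a median of 206 CPM in WT and 97.1 CPM in FANKO BAT (-1.30 ± 0.08, adjusted p = 6.1e-22), and 12 of 16 WT samples exceeded all FANKO samples. Retn moved least among the genes that fell, from a median of 31.9 to 20.5 CPM, with most samples in a shared range (-0.62 ± 0.15, adjusted p = 0.000259), and its change was -0.05 with library size scaling alone (adjusted p = 0.768). Reads of Nrg4 share exon positions with Fbxo22 on the opposite strand, a gene that also fell in BAT (-0.82 ± 0.06, adjusted p = 1.4e-19) from a median of 59.9 to 36.9 CPM. The library kit marks strand, but whether the counting used it is not given in the sources used here.

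Agt went the other way in BAT, at very low counts. It was 0.078 to 1.24 CPM in 15 WT samples (1 to 18 reads) and 8.13 CPM (93 reads) in the ZT 18 sample numbered 4, and 0.633 to 2.81 CPM in FANKO (log2 fold change 1.67 ± 0.41, adjusted p = 0.000249). Of the 16 WT samples, 13 lay below the lowest FANKO sample. Without the 2 ZT 18 libraries numbered 4 the log2 fold change was 2.15 (adjusted p = 2.6e-09), and without replicate 1 it was 1.53 (adjusted p = 0.0103). In that same WT sample the skeletal muscle markers were at their highest, 470 CPM, and the adipocyte markers at their lowest among WT BAT samples, 73000 CPM against 143000 to 219000 CPM. In the WT ZT 10 sample numbered 4, muscle markers were 404 CPM and Agt 0.424 CPM. In the FANKO ZT 18 sample numbered 2 they were 415 CPM and Agt 1.37 CPM. The WT eWAT sample of ZT 18 numbered 4 had 22.8 CPM of muscle markers and 289 CPM of Agt, against 94.5 to 157 CPM of Agt in the other 3 of its group. The cause of the high Agt values in these 2 samples numbered 4 of ZT 18 was not tested.

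Lep, Sfrp5 and Mest showed no difference in mean level in BAT that passed the test. For Lep the difference was -0.20 ± 0.20 (95% interval -0.59 to 0.20, adjusted p = 0.387). For Mest, at medians of 3.52 and 3.08 CPM, it was -0.22 ± 0.31 (95% interval -0.83 to 0.39), and for Sfrp5, at 1.23 and 1.61 CPM, it was 0.32 ± 0.40 (95% interval -0.46 to 1.10). Changes of up to about these bounds cannot be told from none with these samples.

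**Figure D2:**
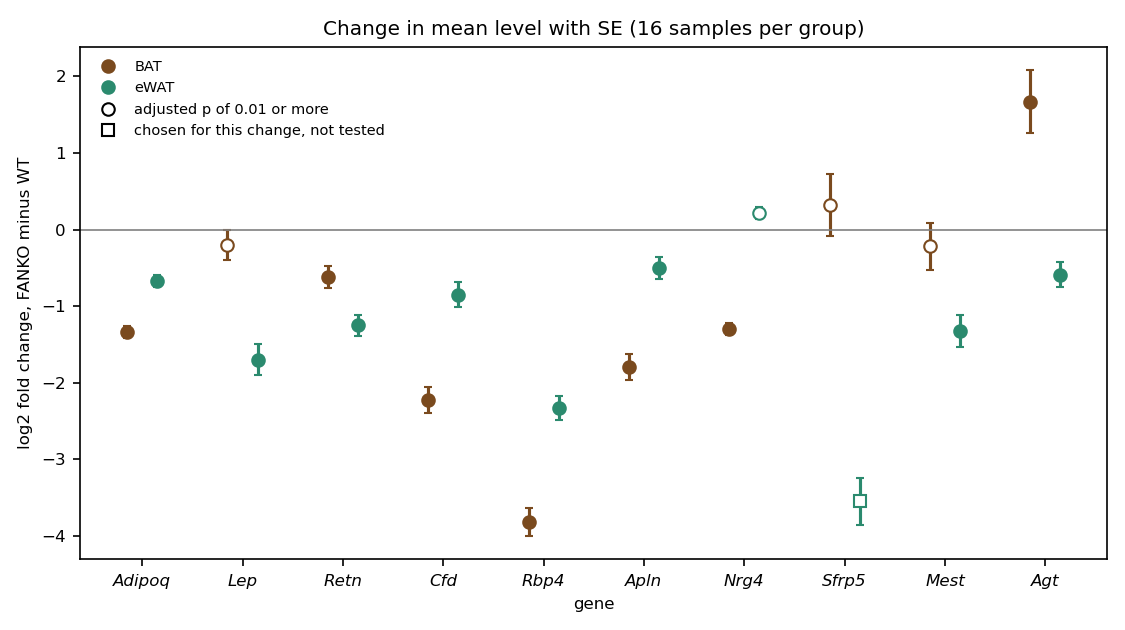
Change in mean level, FANKO minus WT, of each adipokine gene in BAT and eWAT (y axis, log2 fold change, with SE bars), 16 samples per group. Filled circles passed an adjusted p of 0.01, open circles did not, and the open square is Sfrp5 in eWAT, chosen for this change and not tested. Rbp4 is among the lowest points in both depots, and Agt lies above 0 in BAT and below 0 in eWAT.

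White fat of FANKO mice had lower adipokine transcripts almost throughout the list. Of the 9 members tested, 8 fell and none rose, where 50.3% of all genes tested changed, 22.8% lower and 27.6% higher. The median log2 fold change of the 9 was -0.85 against -0.02 for all genes. Rbp4 again fell most among the genes tested, from 123 to 354 CPM (median 217) in WT to 24.9 to 80.4 CPM (median 46.7) in FANKO, without overlap (-2.33 ± 0.16, 5.04-fold, adjusted p = 5.8e-19). Lep was 318 to 1930 CPM with a median of 1120 CPM in WT and 229 to 515 CPM with a median of 336 CPM in FANKO (-1.70 ± 0.20, adjusted p = 7.9e-11). All but 2 of the WT samples exceeded every FANKO sample for Lep, the exceptions being the ZT 6 and ZT 18 samples numbered 4 at 318 and 493 CPM.

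Retn separated the genotypes completely in eWAT, at 614 to 1180 CPM in WT and 290 to 565 CPM in FANKO (-1.25 ± 0.14, adjusted p = 5.7e-11). Mest had a lowest, median and highest level of 10.3, 108 and 233 CPM in WT and of 9.14, 42.8 and 87.9 CPM in FANKO (-1.32 ± 0.21, adjusted p = 3.7e-07), and 11 of 16 WT samples lay above all FANKO samples. Copg2, which overlaps Mest exons on the opposite strand, differed by 0.11 ± 0.05 there (adjusted p = 0.0405). The 2 most abundant members moved less: Cfd went from a median of 5420 to 2970 CPM (-0.85 ± 0.16, adjusted p = 7.8e-06) and Adipoq from 2370 to 1440 CPM (-0.67 ± 0.08, adjusted p = 2.0e-11), each with 14 of 16 WT samples above every FANKO sample.

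Agt and Apln fell by smaller amounts, with wide overlap. Agt was 140 CPM in WT and 89.5 CPM in FANKO eWAT by median (-0.59 ± 0.16, adjusted p = 0.000915), and a DESeq2 fit gave an adjusted p of 0.0168. Apln was 14.4 and 9.84 CPM (-0.50 ± 0.14, adjusted p = 0.0016), and the adjusted p rose to 0.0429 without replicate 1 and 0.0189 without replicate 2. Its FANKO samples were close together, at 8.03 to 12.6 CPM, where WT samples ran from 4.95 to 22.6 CPM. Nrg4 was the member that did not fall, with medians of 92 CPM in WT and 131 CPM in FANKO (0.22 ± 0.08, 95% interval 0.06 to 0.38, adjusted p = 0.0149), and a difference of -0.02 with library size scaling alone.

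Sfrp5 was chosen for its value in this contrast, which is therefore only described. Its lowest, median and highest levels in eWAT were 1.13, 24.1 and 53.1 CPM in WT and 0.526, 1.64 and 9.01 CPM in FANKO, a log2 fold change of -3.55. All but 3 of the WT samples exceeded every FANKO sample. The 3 WT samples inside the FANKO range were the ZT 6 sample numbered 4 at 1.13 CPM and the ZT 18 samples numbered 4 and 3 at 3.12 and 8.58 CPM. The difference was widest at ZT 10 (-4.65) and narrowest at ZT 18 (-1.89), and no test is given for either. At ZT 18 the FANKO sample numbered 3 held 9.01 CPM and the others 0.699 to 2.21 CPM, and without replicate 3 the difference there was -3.25.

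**Figure D3:**
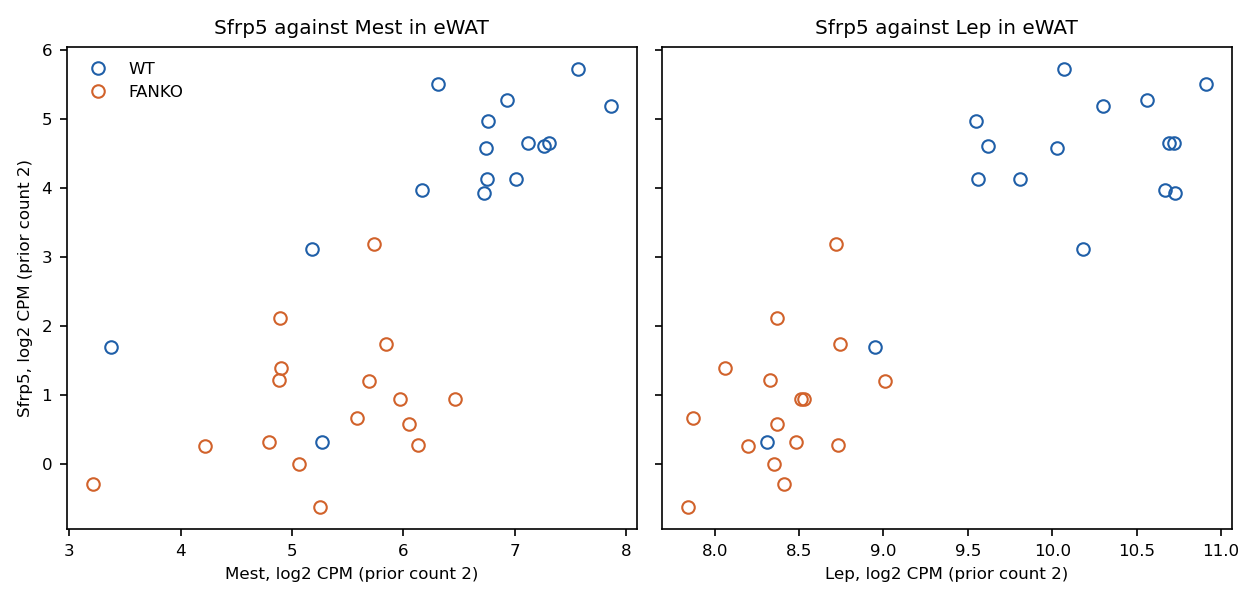
Sfrp5 (y axis) against Mest (left) and Lep (right) in eWAT, all as log2 CPM with a prior count of 2, 1 point per sample, 16 WT and 16 FANKO samples. The WT samples run from 1.13 to 53.1 CPM of Sfrp5 and the FANKO samples from 0.526 to 9.01 CPM, and the WT sample lowest in Sfrp5, at ZT 6, is also the lowest WT sample for Lep at 318 CPM.

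The genotype effect differed between BAT and eWAT for all 9 members tested, where 64.3% of all genes tested differed, 32.1% lower and 32.2% higher in BAT. The effect was lower in BAT for Nrg4 (difference of log2 fold changes, BAT minus eWAT, -1.52 ± 0.11, adjusted p = 2.4e-18), Rbp4 (-1.49 ± 0.23), Cfd (-1.39 ± 0.23), Apln (-1.30 ± 0.22) and Adipoq (-0.67 ± 0.11). It was lower in eWAT for Agt (2.26 ± 0.43, adjusted p = 5.6e-06), Lep (1.51 ± 0.28), Mest (1.10 ± 0.38) and Retn (0.63 ± 0.21). Agt fell in eWAT and rose in BAT, while for Rbp4, Cfd, Apln, Adipoq and Retn the effect had the same sign in both depots and differed in size. The Mest and Retn differences were near the threshold (adjusted p = 0.00796 and 0.00566), and that for Mest reached an adjusted p of 0.136 with limma-voom 0.011 with the robust fit and 0.013 with the replicate number as a block. Leaving out replicate 2 or 3 gave an adjusted p of 0.0267 or 0.0508 for Retn, and leaving out replicate 1, 2 or 3 gave 0.0453, 0.0284 or 0.0147 for Mest. With library size scaling alone the Adipoq difference was 0.15 (adjusted p = 0.229), that of Cfd -0.58 (adjusted p = 0.0241) and that of Apln -0.49 (adjusted p = 0.0467).

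Leptin transcripts in WT BAT followed the time of day with the widest swing of any member. The 4 WT BAT samples were 5.67 to 20.1 CPM at ZT 6, 14.8 to 37.1 CPM at ZT 10, 20.5 to 169 CPM at ZT 18 and 86 to 204 CPM at ZT 22. The ZT 18 samples read 169, 149, 137 and 20.5 CPM, the last from the library numbered 4, and the ZT 22 samples did not overlap those of ZT 6 or ZT 10. The range between the highest and lowest time point means was 3.49 ± 0.47 on the log2 scale, and the cosine test gave an adjusted p of 8.8e-10. In FANKO BAT the samples were 21.3 to 61.6 CPM at ZT 6, 15.2 to 30.4 CPM at ZT 10, 57.3 to 103 CPM at ZT 18 and 52.6 to 61.3 CPM at ZT 22. The swing there was 1.46 ± 0.31 (adjusted p = 0.0538).

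Every FANKO sample at ZT 6 exceeded every WT sample in BAT, and every FANKO sample at ZT 22 was below every WT sample. Lep was thus higher in FANKO at ZT 6 (log2 fold change 1.47 ± 0.40, adjusted p = 0.00151) and lower at ZT 22 (-1.37 ± 0.38, adjusted p = 0.00188), with -0.04 ± 0.39 at ZT 10 and -0.78 ± 0.38 at ZT 18, neither of which passed. At ZT 6 the adjusted p was 0.011 with limma-voom and 0.0443 without replicate 1. At ZT 22 it was 0.0665 with library size scaling alone (-0.78) and 0.0209, 0.0344 and 0.0157 without replicate 1, 2 or 3. The ZT 18 difference passed without replicate 4 (-1.06, adjusted p = 0.00196) and without the 2 WT ZT 18 libraries numbered 4 (-1.13, adjusted p = 0.00216).

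The test of the rhythm difference itself gave an adjusted p of 0.00891 for Lep, the 1 member of 10 called, where 2.76% of all genes tested were called. That call is not firm, since the adjusted p ran from 5.9e-05 to 0.251 over the alternatives, the lowest without the 2 ZT 18 libraries numbered 4 and the highest without replicate 1. Without those 2 libraries Lep also passed the rhythm test in FANKO BAT (adjusted p = 0.00732) and in WT eWAT (adjusted p = 0.00644). Both libraries are WT, so the FANKO BAT samples were the same in the 2 fits. The single fit shares its estimate of the spread over all samples, so that call is not a change in the FANKO values.

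In WT eWAT Lep was again highest at ZT 22 and lowest at ZT 6, with a swing of 1.30 ± 0.39 (adjusted p = 0.103). The WT samples there were 318 to 1040 CPM at ZT 6 and 1510 to 1930 CPM at ZT 22, without overlap. In FANKO eWAT the swing was 0.26 ± 0.28. FANKO fell below WT at each of the 4 time points, by 1.27 on the log2 scale at ZT 6 and by 2.37 at ZT 22. Only the ZT 22 call held whichever replicate was left out. Without replicate 1, 2 or 3 the adjusted p was 0.0667, 0.0584 and 0.0365 at ZT 6 and 0.0163, 0.109 and 0.0143 at ZT 10, without replicate 1 or 2 it was 0.0167 and 0.0156 at ZT 18, and limma-voom gave 0.0151 at ZT 6. In the cosine fit, the rhythm difference in eWAT had an adjusted p of 0.454.

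**Figure D4:**
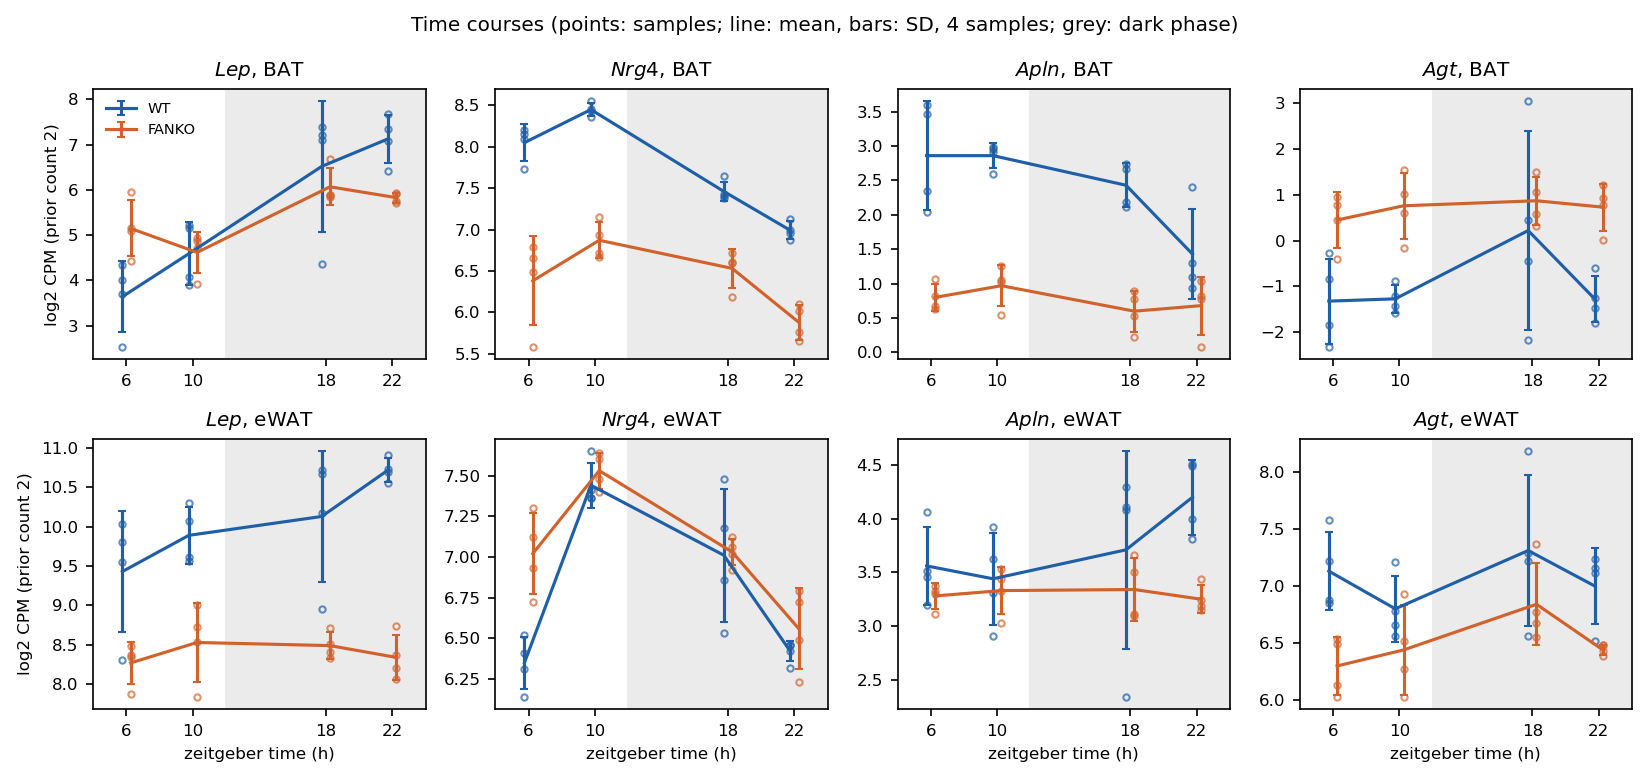
Levels of Lep, Nrg4, Apln and Agt over zeitgeber time (x axis, hours) in BAT (top) and eWAT (bottom), as log2 CPM with a prior count of 2. Points are samples, lines join the means of 4 samples, bars are SD, and grey marks the dark phase. The Lep lines of WT and FANKO cross in BAT, the mean of Nrg4 is highest at ZT 10 in both genotypes and depots, and 1 WT sample sets the ZT 18 mean of Agt in BAT.

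Nrg4 was the most regular member. It was rhythmic in both depots of both genotypes, each time highest at ZT 10 among the 4 times sampled. The swings were 1.47 ± 0.07 in WT BAT (adjusted p = 8.9e-11), 0.99 ± 0.15 in FANKO BAT (adjusted p = 0.000139), 1.10 ± 0.11 in WT eWAT (adjusted p = 1.5e-07) and 0.97 ± 0.14 in FANKO eWAT (adjusted p = 5.3e-05). In the same order the fitted cosines of Nrg4 peaked at 10.5, 12.5, 13.5 and 12 h, between sampled times. From peak to trough they spanned 1.48, 1.24, 1.70 and 1.13. In WT BAT its samples were 212 to 293 CPM at ZT 6, 329 to 376 CPM at ZT 10, 166 to 200 CPM at ZT 18 and 117 to 140 CPM at ZT 22, with no overlap between any of the 4 time points. In FANKO BAT they were 47.9 to 111 CPM at ZT 6, 102 to 142 CPM at ZT 10, 72.7 to 105 CPM at ZT 18 and 49.9 to 68.6 CPM at ZT 22. FANKO was lower than WT at all 4 time points in BAT, by 1.61 on the log2 scale at ZT 6 and by 0.93 at ZT 18, where library size scaling alone gave -0.33 (adjusted p = 0.0387).

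The rhythm difference of Nrg4 did not pass in either depot (adjusted p = 0.0402 in BAT and 0.161 in eWAT). In eWAT at ZT 6 the WT samples were 70.6 to 91.8 CPM and the FANKO samples 105 to 157 CPM, all higher (0.68 ± 0.16, adjusted p = 0.000512), while at the other 3 time points the genotypes differed by -0.02 to 0.16 with overlapping samples. The ZT 6 difference was 0.41 with library size scaling alone (adjusted p = 0.0199) and 0.51 without replicate 2 (adjusted p = 0.0534).

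Of the 10 members, 4 were called rhythmic in WT BAT, where 13.9% of genes were, and 1 each in FANKO BAT (2.84%), WT eWAT (9.38%) and FANKO eWAT (6.77%). Beside Lep and Nrg4 these were Apln and Agt in WT BAT. Apln was highest at ZT 6, at 3.98 to 12 CPM, and lowest at ZT 22, at 1.78 to 5.14 CPM (swing 1.43 ± 0.51, adjusted p = 0.00591), against 0.37 ± 0.21 in FANKO BAT. Its adjusted p lay between 0.045 and 0.0532 without replicate 1, 2 or 3 and was 0.0625 with limma-voom and 0.0133 with muscle and epididymis covariates. In WT eWAT Apln passed without the 2 ZT 18 libraries numbered 4 (adjusted p = 0.00742). The Agt call (adjusted p = 0.00256) rested on the ZT 18 library numbered 4: leaving out that library and its eWAT counterpart gave an adjusted p of 0.562. It was 0.593 with limma-voom, 0.0313 without replicate 1 and 0.0119 without replicate 3. No member's rhythm differed between genotypes in eWAT among the 9 tested, where 1.15% of genes did. The unadjusted p was under 0.05 for 1 of those 9, Nrg4 (0.0128), and DESeq2 and limma-voom each called 0 of them.

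At single time points, the genotype contrast was spread over the day for some members and not for others. Adipoq, Cfd, Rbp4 and Nrg4 were lower in FANKO BAT at all 4 time points and Apln at 3, while Retn passed at ZT 18 alone, with an adjusted p of 0.033 under library size scaling and 0.0114 without replicate 4. Of 10 members in BAT, 6 were called at ZT 6 (5 lower), 6 at ZT 10 (5 lower), 6 at ZT 18 (all lower) and 5 at ZT 22 (all lower). In the same contrasts 48.2%, 45.7%, 44.0% and 45.3% of genes were called, 23.9%, 22.4%, 22.5% and 22.7% lower and 24.4%, 23.3%, 21.5% and 22.6% higher. The members that were higher were Lep at ZT 6 and Agt at ZT 10. Lep was also lower at ZT 22. In eWAT Lep, Adipoq and Rbp4 were lower at all 4 and Retn at 3. Of 9 members there, 6 were called at ZT 6 (5 lower, with Nrg4 higher), 4 at ZT 10, 4 at ZT 18 and 6 at ZT 22 (all lower). In those contrasts 27.0%, 24.5%, 13.6% and 20.6% of genes were called, 10.1%, 8.46%, 5.10% and 8.02% lower and 16.9% were higher at ZT 6, 8.54% at ZT 18 and 12.6% at ZT 22. Agt passed at 1 time point in BAT, ZT 10 (2.71 ± 0.85, adjusted p = 0.00543), and at none in eWAT.

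The number of single time point calls differed without the 2 WT ZT 18 libraries numbered 4. Those libraries are no part of the ZT 6, 10 and 22 contrasts. The log2 fold changes there stayed nearly the same, as for Agt in BAT at ZT 6, 2.24 with and without them. All samples share 1 fit and its estimate of the spread, so calls at those times can differ while their samples do not. Without them 7, 6, 8 and 7 members were called in BAT at ZT 6, 10, 18 and 22, and 7, 5, 4 and 6 in eWAT. Over all genes, the number called in BAT went from 9768 to 10126 at ZT 6 and from 9258 to 9609 at ZT 10. At ZT 18 it went from 8905 to 8590, and the numbers for ZT 22 and for eWAT are not given here. Agt then passed in BAT at all 4 time points (log2 fold changes 2.24, 2.72, 1.56 and 2.12, adjusted p = 0.002, 0.00015, 0.00914 and 0.00256) and in eWAT at ZT 6 (-0.85, adjusted p = 0.000852). With all libraries kept, its ZT 10 call in BAT was lost with limma-voom (adjusted p = 0.0468) and without replicate 1 or 3 (0.0983 and 0.0251). The other calls gained were Lep at ZT 18 and Apln at ZT 22 in BAT (-0.97, adjusted p = 0.00694) and Retn at ZT 10 in eWAT (-0.86, adjusted p = 0.00653). In eWAT the Adipoq call was lost at ZT 10 with any 1 replicate left out (adjusted p of 0.0123 to 0.0247) and at ZT 18 without replicate 1 or 4 (0.0145 and 0.034).

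General adipocyte genes mostly rose in FANKO eWAT, where the adipokine genes fell. Of 14 adipocyte markers, none of them a member, 9 were higher and 2 lower in FANKO eWAT, with a median log2 fold change of 0.37, while all 14 were lower in FANKO BAT (median -0.87). Among all genes tested, 27.6% were higher and 22.8% lower in FANKO eWAT, and 33.1% were higher and 33.9% lower in FANKO BAT. Their sum was 41000 to 111000 CPM in WT eWAT and 118000 to 166000 CPM in FANKO eWAT, without overlap, and 66.6% and 76.9% of it by median came from the lipogenic genes Scd1 and Fasn. The perilipin gene Plin1 (-0.44 ± 0.06, adjusted p = 1.9e-08) and the lipase gene Lipe (-0.20 ± 0.06, adjusted p = 0.00311) were lower, and the fatty acid-binding protein gene Fabp4 (0.44 ± 0.07, adjusted p = 1.7e-07) and the glucose transporter gene Slc2a4 (1.19 ± 0.08, adjusted p = 1.9e-20) were higher. The 10 adipokine genes summed to 8760 to 12700 CPM in WT eWAT and 4160 to 8030 CPM in FANKO eWAT, and to 1280 to 3400 and 452 to 1010 CPM in BAT, without overlap in either depot. By median, Cfd and Adipoq made up 51.5% and 22.4% of this sum in WT eWAT and 53.8% and 26.1% in FANKO eWAT. In BAT they made up 24.8% and 47.9% in WT and 18% and 54.9% in FANKO, so the sums mostly describe these 2 genes.

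Markers of brown adipocytes and of other cells moved with the genotype as well. In BAT 9 of 10 macrophage markers were higher in FANKO, with sums of 95.6 to 181 CPM in WT and 659 to 1680 CPM in FANKO, as were 7 of 7 T and B cell markers and 6 of 9 adipocyte progenitor markers. There 33.1% of all genes tested were higher and 33.9% lower. Of the brown adipocyte markers 7 of 10 were lower in FANKO BAT, with sums of 5850 to 12500 CPM in WT and 1660 to 4190 CPM in FANKO. Endothelial markers were lower there for 5 of 6. In eWAT macrophage markers summed to 564 to 869 CPM in WT and 580 to 1040 CPM in FANKO, 6 of 9 progenitor markers were lower (sums of 470 to 647 and 379 to 574 CPM), and all 7 mesothelial markers were lower (187 to 486 and 164 to 245 CPM). Brown adipocyte markers summed to 26.5 to 67.3 and 136 to 202 CPM, with 5 of 10 higher and 2 lower, and 1 of 6 endothelial markers was lower. There 27.6% of all genes tested were higher and 22.8% lower. The part of these cells in the adipokine levels was not tested.

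**Figure D5:**
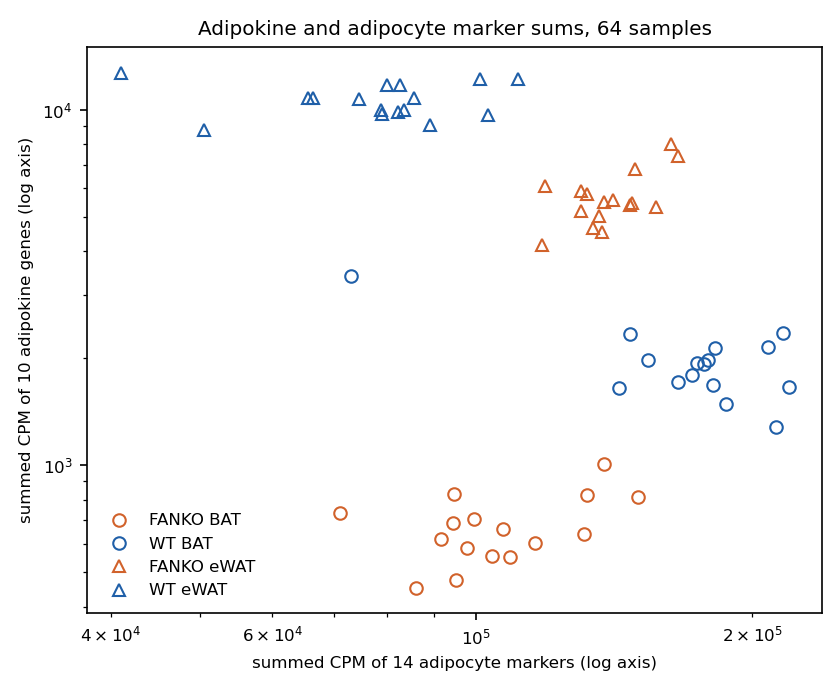
Summed CPM of the 10 adipokine genes (y axis) against summed CPM of 14 adipocyte markers (x axis), both on log axes, 1 point per sample, 64 samples. FANKO points lie below WT points of the same depot, to the right of them in eWAT and mostly to the left in BAT. The adipokine sum comes mostly from Cfd and Adipoq.

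The proteins that receive or bind these adipokines are made in part by fat itself, and 11 of 15 listed were measurable. In FANKO BAT 2 were higher and 5 lower, and in FANKO eWAT 3 were higher and 1 lower. Of all genes tested, 67.0% were called in BAT and 50.3% in eWAT, so these counts do not exceed the background. Erbb4, the receptor of neuregulin 4, fell in BAT from a median of 39 to 3.29 CPM (-3.49 ± 0.18, adjusted p = 4.7e-26), beside the fall of its ligand, and was 1.35 and 1.11 CPM in eWAT. The adiponectin receptors Adipor1 and Adipor2 were lower in FANKO BAT (-0.46 ± 0.05 and -0.66 ± 0.06) and higher in FANKO eWAT (0.44 ± 0.05 and 0.27 ± 0.06), and the adiponectin-binding cadherin gene Cdh13 was lower in BAT (-0.89 ± 0.08, adjusted p = 9.3e-15).

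Cap1, reported as a resistin-binding protein, was higher in both depots (1.08 ± 0.04 and 0.23 ± 0.04). Lepr, the leptin receptor, was higher in BAT at low levels, 0.944 and 2.49 CPM (1.30 ± 0.17, adjusted p = 3.3e-10), with a value of 0.00 ± 0.13 in eWAT. The apelin receptor gene Aplnr was lower in BAT (-0.44 ± 0.14, adjusted p = 0.00469), and Agtr1a, the angiotensin receptor, passed in neither depot (-0.12 ± 0.08 and -0.08 ± 0.07). Erbb3 was lower in eWAT (-0.64 ± 0.17, adjusted p = 0.00117), Mas1 passed in neither depot, and Ttr, the plasma partner of Rbp4, had a median of 0 CPM in both BAT groups and 6.6 and 5.13 CPM in the eWAT groups.

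Of 11 transcription factors known to act on adipokine genes, 7 were lower in FANKO BAT and none higher, among them Klf15 (-2.74 ± 0.18), Ebf2 (-1.70 ± 0.06), Cebpa (-0.90 ± 0.09) and Pparg (-0.63 ± 0.07). The shares of all genes tested were 33.9% lower and 33.1% higher. In eWAT 2 of the 11 were lower, Klf15 (-0.76 ± 0.16) and Ebf2 (-0.48 ± 0.06), and 2 higher, Srebf1 (1.22 ± 0.12) and Cebpb (0.79 ± 0.12), while Pparg was 0.04 ± 0.07. The shares of all genes tested there were 22.8% lower and 27.6% higher. Among 6 genes of adiponectin assembly and secretion, 4 were higher in eWAT, including the oxidoreductase gene Ero1l (1.02 ± 0.05) and the chaperone gene Hspa5 (1.02 ± 0.07), and Gstk1 was lower in both depots (-1.55 ± 0.08 in BAT and -0.41 ± 0.08 in eWAT).

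Of the other alternative complement genes, 7 of 10 were higher in FANKO BAT, where 33.1% of all genes tested were. This was opposite to Cfd itself, and was led by Cfb, the substrate of adipsin (4.82 ± 0.14, from 0.489 to 16.3 CPM by median), and C3ar1 (4.62 ± 0.14). C3 was lower in both depots (-0.32 ± 0.08 and -0.45 ± 0.08). In eWAT 4 of the 10 were lower and 2 higher, where 22.8% and 27.6% of all genes tested were. Among 10 measured renin-angiotensin genes, Enpep, an aminopeptidase that degrades angiotensin II, was higher in both depots (1.98 ± 0.14 and 1.64 ± 0.13), Mme was lower in both (-2.11 ± 0.07 and -0.37 ± 0.07), and Ace was higher in BAT and lower in eWAT (1.03 ± 0.10 and -0.65 ± 0.10).

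In eWAT 13 of 15 other frizzled-related and WNT genes were lower in FANKO and none was higher, with a median of -0.84, where 22.8% of all genes tested were lower. Fzd4 (-1.20 ± 0.09), Wnt10b (-1.19 ± 0.20), Sfrp4 (-1.15 ± 0.21) and the WNT target gene Axin2 (-1.15 ± 0.11) fell most, and Wnt5a, the ligand that Sfrp5 binds, was also lower (-0.40 ± 0.05, adjusted p = 6.7e-09). In BAT 6 of the 15 were higher and 5 lower, where 33.1% and 33.9% of all genes tested were, so these counts are close to the background. Axin2 and Fzd4 were lower there too (-1.65 ± 0.12 and -1.62 ± 0.09), while Dkk3 (2.11 ± 0.15) and Sfrp1 (1.92 ± 0.17) were higher.

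Other secreted factors of fat did not share the direction of the members in BAT. Of 39 measured, 25 were higher and 8 lower in FANKO BAT, where 33.1% and 33.9% of all genes tested were. In eWAT 10 were higher and 16 lower, where 27.6% and 22.8% of all genes tested were. The highest rises in BAT were those of the stress cytokine gene Gdf15 (7.62 ± 0.37, from 0.025 to 11.9 CPM by median), the chemokine gene Ccl2 (5.45 ± 0.30) and Tnf (5.01 ± 0.20). Apoc1 (-2.45 ± 0.12), C1qtnf12 (-2.08 ± 0.07) and Vegfb (-1.37 ± 0.08) fell most. In eWAT Fgf21 (4.05 ± 0.26, from 0.33 to 3.97 CPM), Gdf15 (3.31 ± 0.32) and Angptl8 (2.15 ± 0.25) rose, and Retnla (-1.26 ± 0.15), Fbn1 (-1.17 ± 0.13), Inhbb (-0.91 ± 0.12) and Fstl1 (-0.91 ± 0.10) fell.

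The genes most like each member were found by the Pearson correlation of log2 CPM over 64 samples after centring each depot, as a description that shares the genotype and time differences of these samples. Adipoq was closest to Selenbp1, Sort1 and Pxmp2 (each r = 0.95), Rbp4 to D3Ertd751e (0.96), Bche (0.95) and Ehd2 (0.95), and Cfd to Acss3 (0.93), Bnip3 (0.92) and Selenbp1 (0.92). Nrg4 was closest to the acyl-CoA synthetase gene Acsl1 (0.91), the clock output gene Hlf (0.89) and Smim19 (0.88). Lep was closest to Daam1 (0.85), Rbm28 (0.83) and Mical2 (0.78), and Apln to Ccdc28b (0.89), Tmem150a (0.87) and Cdkn2c (0.87). For Retn, Sfrp5, Mest and Agt the first neighbors were Nnmt (0.83), Rgs7bp (0.82), Fmr1 (0.74) and Dpep1 (0.85).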

How the data were processed

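The authors sequenced 64 ribosome-depleted total RNA libraries as paired reads, aligned them with STAR 2.5.3a to GRCm38 and deposited raw read counts per gene from featureCounts 1.5.3. Strand and multimapping settings are not given in the sources used here. Groups and replicate numbers came from the labels. Nothing in the labels ties each sample to a separate mouse, so p-values measure the spread between samples. All 52636 genes entered edgeR 4.0.16 (R 4.3.3): filterByExpr left 20249, libraries were TMM scaled, and quasi-likelihood F tests were made in a cosine model with a 24 h period and 12 coefficients (mean level, rhythm, depot, interaction) and in a model of 16 group means (single time points). Adjustment was Benjamini-Hochberg over all genes tested, with a threshold of 0.01. Log2 CPM used a prior count of 2, and intervals are 95%. The swing is the range of the 4 time point means, with the SE of the highest minus the lowest. The p-value beside a swing tests the cosine fit, not that range. DESeq2 1.42.0, limma-voom (limma 3.58.1), other scalings, filters, covariates and left-out samples were alternatives. Methods were tested on simulated data. The members and lists were chosen with earlier results of these data known. Named beside the members were the listed genes past the threshold with the largest changes (up to 3 in each direction and depot), all receptors and partners, any listed gene a clause needed, and the 3 genes most correlated with each member among those with a mean log2 CPM of at least 1. Promoters came from RefSeq (GRCm38.p6). Replicate numbers were not taken to pair samples, so the depot tests treat BAT and eWAT samples as unpaired.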

Additional observations from a re-analysis of the deposited data

Results flagged for a closer look

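In 7 of 160 sets of 4 samples, 1 sample stood apart from the other 3 by a gap past the 95% critical value for sets of 4, a rate close to the 1 in 20 that chance gives. In BAT, Lep was 20.5 CPM in the WT ZT 18 sample numbered 4 against 137 to 169 CPM, and 103 CPM in the FANKO ZT 18 sample numbered 3 against 57.3 to 59.1 CPM. Adipoq was 531 CPM in the FANKO BAT ZT 18 sample numbered 1 against 388 to 393 CPM, and Cfd was 298 CPM in the FANKO BAT ZT 10 sample numbered 1 against 104 to 119 CPM. In WT eWAT, Adipoq was 2010 CPM in the ZT 18 sample numbered 2 against 2730 to 2760 CPM, Apln was 4.95 CPM in the ZT 18 sample numbered 4 against 16.8 to 19.5 CPM, and Mest was 38.4 CPM in the ZT 6 sample numbered 4 against 107 to 108 CPM.

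The FANKO effect differed between the depots, by the interaction test, for 9 members (log2, BAT minus eWAT): Lep 1.51, Adipoq -0.67, Retn 0.63, Cfd -1.39, Rbp4 -1.49, Nrg4 -1.52, Apln -1.30, Mest 1.10 and Agt 2.26. The rhythm of Lep differed between FANKO and WT in BAT (edgeR, adjusted p = 0.00891).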

How the results depend on the processing

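Each member other than Sfrp5 was compared with the main result under each alternative setting. Mean level differences kept their direction and their side of the threshold in 157 of 162 such comparisons in BAT and 156 of 162 in eWAT. The settings overlap, and that with a threshold of 0.05 reuses the main fit. Library size scaling without TMM moved the median of all genes by 0.59 in BAT, -0.25 in eWAT and -0.75 between the WT depots. The share of called genes that were higher in FANKO went from 49.4% to 84.9% in BAT and from 54.8% to 21.8% in eWAT, and the share higher in BAT than eWAT of WT mice from 44.3% to 13.7%. Under that scaling these signs turned (log2): in BAT, mean level of Lep 0.40 and Mest 0.38, Mest 0.34 at ZT 6, Lep 0.52, Retn 0.45 and Mest 0.45 at ZT 10, Sfrp5 0.37, Mest 0.14 and Agt 0.27 at ZT 18, and Retn 0.29 at ZT 22. In eWAT they were the mean level of Nrg4 -0.02, and Nrg4 -0.23 at ZT 10 and -0.07 at ZT 22, and between depots the Adipoq effect 0.15. With limma-voom, Lep at ZT 10 in BAT was 0.07, Agt at ZT 18 in BAT 1.15 and Nrg4 at ZT 18 in eWAT 0.02. Without the 2 WT ZT 18 libraries numbered 4, an alternative chosen after seeing the data, Agt at ZT 18 in BAT was 1.56. The cause of these changes was not tested.

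Of 10 members, 4 were rhythmic in WT BAT, but 2 with limma-voom and 2 to 3 with 1 replicate number left out. Among all genes 2807 were rhythmic there, 2511 with limma-voom and 1680 or 1841 without replicate 1 or 3. In FANKO BAT 1 member was, and 2 with DESeq2, at a threshold of 0.05, or without the 2 WT ZT 18 libraries, which hold no FANKO sample. All rhythmic genes there numbered 575 in the main fit and 874, 1396 and 802 in those settings in turn. In WT eWAT 1 member was, and 3 without those libraries, while all rhythmic genes there went from 1899 to 2588. The 1 rhythm difference in BAT, Lep, became 0 with library size scaling, limma-voom, the robust fit, separate fits by depot, or muscle and epididymis covariates. It became 0 to 1 with a replicate number left out, and 2 at a threshold of 0.05. Rhythm differences among all genes in BAT numbered 559 in the main fit. They numbered 268, 474, 554, 314 and 478 in the settings with 0, in the order named. Without replicate 1, 2 or 3 there were 192, 183 and 277, and at the threshold of 0.05 there were 1205. Separate fits by depot give no depot contrast.

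With 1 replicate number left out, eWAT counts were 3 to 7 at ZT 6, 1 to 3 at ZT 10 and 2 to 4 at ZT 18. Calls over all genes fell as well. Without replicate 2 they went from 5458 to 3129 at ZT 6 and from 4953 to 2985 at ZT 10. Without replicate 1 they went from 2762 to 1536 at ZT 18. In BAT, log2 differences that changed sign ran from -0.35 to 0.01 for the mean level of Lep, at ZT 10 from -0.26 to 0.34 for Lep, -0.40 to 0.10 for Retn and -0.33 to 0.01 for Mest, at ZT 18 from -0.54 to 0.15 for Sfrp5 and -0.70 to 1.24 for Agt, and at ZT 22 from -0.20 to 0.56 for Sfrp5 and -0.04 to 0.22 for Mest. In eWAT they ran from -0.43 to 0.12 for Apln at ZT 10 and -0.13 to 0.12 for Nrg4 at ZT 18.

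With the replicate number as a block, 7 members were called in BAT and 8 in eWAT, and 8 in place of 9 differed in effect between the depots, with Mest lost (adjusted p = 0.013). Lep at ZT 10 in BAT was 0.07 in that fit. Over 32 pairs of same-numbered samples of the 2 depots the correlation of deviations was -0.22 to 0.48 and above 0.1 in 19, and 17 correlated best with their own number out of 4. Own numbers were thus the best match more often than a random choice among the 4 would give. Not every pair was above 0.1, and the labels do not say whether both depots came from the same mouse. The samples were treated as unpaired, so the depot and interaction p-values leave out any such pairing. Same-numbered samples of different groups within a depot were alike to a similar degree. Their median correlation was 0.11 in BAT (above 0.1 in 60 of 112 pairs) and 0.14 in eWAT (66 of 112), against 0.12 across the depots. The main fits hold no term for the number, so their p-values leave out this likeness too, and its source was not tested. Agt, Apln, Sfrp5 and Mest in BAT had the fewest reads, and small differences there were not detectable at this depth.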

Other observations

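Among WT eWAT samples Sfrp5 and Mest varied together. Over 16 samples the correlation of their log2 CPM was r = 0.78 (permutation p = 0.00466, adjusted over 6 relations 0.0193) and rho = 0.71 (permutation p = 0.00308, adjusted 0.0185), with r = 0.65 after leaving out the 2 samples farthest from the median of Sfrp5 and r = 0.75 after removing time point means. In FANKO eWAT the same relation was r = 0.32 (permutation p = 0.214, adjusted 0.223), and the difference between genotypes was not tested. Sfrp5 and Lep in WT eWAT gave r = 0.72 (permutation p = 0.00642, adjusted 0.0193) but rho = 0.39 (permutation p = 0.132, adjusted 0.264), and r fell to 0.11 without the 2 farthest samples, so that relation rests on those samples. It was r = 0.66 without the ZT 18 sample numbered 4 and r = 0.87 after removing time point means. Mest and Lep in WT eWAT gave r = 0.50 (permutation p = 0.0823, adjusted 0.154) and rho = 0.18 (permutation p = 0.515, adjusted 0.515), with r = 0.41 without the 2 farthest samples and r = 0.86 after removing time point means. No test was made of the values with time point means removed. The relations were chosen after the values were seen, and Sfrp5 was itself chosen on its level in this depot. The p-values, adjusted over these 6 relations alone, do not cover that choice. The permutations mixed the samples of all 4 time points of a genotype, so these p-values do not set time of day apart.

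Rbm28, a gene with a profile like that of Lep (r = 0.83), lies 49.7 kb from it on chromosome 6. Rbm28 was picked for this likeness in the same samples, so its rhythm and genotype difference follow in part from the choice and no test is given. Its median was 74.8 CPM in WT eWAT and 59.4 CPM in FANKO eWAT.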
